A study of Rattus norvegicus with 9 samples.

Results

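Short noncoding RNA genes were read in RNA sequencing of rat pXEN cells, primitive extraembryonic endoderm stem cells of the line RX1 and the WKY strain. The genes are Rmrp, Rn5s and 3 hairpin genes of the Mir290 cluster, Mir290, Mir291a and Mir294. They were picked by symbol and are 5 of the 17315 genes in the tables, and 5 of the 465 rows that name a short noncoding or ribosomal RNA. They were chosen by the counts measured in these same libraries, so the values of these 5 genes are given as a description with no test. Whatever separates the media in these 5 genes was what drew attention to them.

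There are 9 libraries, 3 from each of 3 culture media. The T cells grew on plates coated with 100 ng/ml fibronectin in DMEM/MCDB with LA-BSA, ITS, ascorbic acid, β-mercaptoethanol, 2% fetal bovine serum, the glucocorticoid dexamethasone at 0.5 µM and the growth factors Pdgf, Egf and Lif at 10 ng/ml each. The LPE cells grew without serum or dexamethasone on 10 µg/ml collagen I in DMEM/F12 with Neurobasal, the N2 and B27 supplements, β-mercaptoethanol and Lif, Pdgf and Egf at 10 ng/ml each. The CPE medium held 1 µM Chir99021, an inhibitor of the kinase Gsk3, in place of Lif and was otherwise as LPE. T differs from both other media in coating, base medium, serum and dexamethasone together, so these cannot be told apart. All libraries come from 1 line, and the labels do not say whether libraries of a medium were separate cultures.

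RNase MRP is an RNA-protein enzyme that cuts precursor ribosomal RNA, and it shares most of its proteins with RNase P, which trims the 5′ ends of precursor tRNAs. 5S ribosomal RNA is made by RNA polymerase III outside the nucleolus and joins the large ribosomal subunit together with the proteins Rpl5 and Rpl11. The Mir290 cluster is a run of microRNA hairpins cut from 1 long transcript. In mouse its microRNAs are among the most abundant of embryonic stem cells, and those with an AAGUGC seed favour entry into S phase.

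The sequences of the 3 hairpins show the stretch that each row is named for. Reads of these libraries can run past the ends of a hairpin. They are given from RefSeq (assembly GRCr8), where they lie on the minus strand of chromosome 1 within the gene Nlrp12, at chr1:74880055-74880135 (Mir290), chr1:74879757-74879838 (Mir291a) and chr1:74878096-74878166 (Mir294). The counts themselves were made on another build, rn6. Capitals mark AAGUGC, searched on the RNA strand only.
Mir290: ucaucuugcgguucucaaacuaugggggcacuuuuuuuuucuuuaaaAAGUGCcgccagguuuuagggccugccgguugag
Mir291a: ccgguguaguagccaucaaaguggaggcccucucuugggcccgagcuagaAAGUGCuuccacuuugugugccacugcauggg
Mir294: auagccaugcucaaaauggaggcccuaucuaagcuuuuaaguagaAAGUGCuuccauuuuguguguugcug

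The hairpins are 81, 82 and 71 bases long, and each holds AAGUGC once, toward its 3′ end. The same letters occur in 8 of the 8 hairpins named Mir290 to Mir295 and in 23 of the 419 rat hairpins in the RefSeq table (5.49%). RefSeq places 1 of these 8, Mir295-2, apart from the others, at chr1:82352152-82352232 on the plus strand. Mir291a and Mir294 share a run of 15 bases and are identical at 64.7% of aligned positions. Mir290 is less like either, at 53.4% with Mir291a and 58.1% with Mir294, and is closest to Mir292 at 72.7%.

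The mature microRNAs that RefSeq lists for the 3 hairpins, and for 4 arms of their neighbours, are shown with the seed (bases 2 to 8) in capitals, because the seed sets which messages a microRNA can pair with.
rno-miR-290: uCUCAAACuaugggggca
rno-miR-292-5p: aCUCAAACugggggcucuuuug
rno-miR-293-5p: aCUCAAACugugugacacuuu
rno-miR-291a-3p: aAAGUGCUuccacuuugugugcc
rno-miR-291b: aAAGUGCAuccauuuuguuagu
rno-miR-292-3p: aAGUGCCGccagguuuugagugu
rno-miR-291a-5p: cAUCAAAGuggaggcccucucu
rno-miR-294: cUCAAAAUggaggcccuaucu

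The seed CUCAAAC is shared by miR-290, miR-292-5p and miR-293-5p. The seed AAGUGCU of miR-291a-3p is carried by 2 of the 724 mature rat sequences in the table. The listed miR-294 is the 5′ arm, which lacks AAGUGC. These libraries were fragmented total RNA read for 101 cycles, and no small-RNA library is among them, so reads on a hairpin row are reads of the hairpin region and are no measure of mature microRNA.

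All 3 hairpins were read in every T library and in none of the LPE or CPE libraries. Mir290 had 8, 12 and 8 reads in T libraries 1, 2 and 3, and 0 in the other 6. Mir291a had 7, 11 and 26 reads in T, and 0 in the other 6. Mir294 had 13, 9 and 12 reads in T, and 0 in the other 6. The T libraries were thus set apart from the rest at each hairpin, and the highest T library differed between hairpins. In bulk RNA, fewer cells that make a transcript and less of it per cell cannot be told apart.

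In counts per 1000000 gene reads with TMM scaling (CPM), the T means were 5.01 ± 1.71 for Mir290, 7.43 ± 4.23 for Mir291a and 5.96 ± 0.997 for Mir294 (SD, n = 3). A floor of 3 reads per library, which covers counting error only, was set for libraries without reads. The T mean of Mir290 was 5.27 times the mean floor in LPE and 5.94 times that in CPE. For Mir291a these values were 7.81 and 8.80, and for Mir294 they were 6.27 and 7.06. The floor is worth 1.39 to 1.74 CPM in T, 0.932 to 0.962 in LPE and 0.681 to 0.966 in CPE. Variance between replicates was 10.9 to 17.5 times sampling variance in LPE, 11.1 to 14.2 times in CPE and 1.94 to 4.26 times in T. With such spread a level above 3 reads can go unread in a library. The values are therefore no lower bounds on the difference between media.

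Zeros were more common in LPE and CPE for weakly read genes in general. In the T libraries 1750 to 2025 genes had 1 to 6 reads, compared with 97 to 425 genes in LPE and with 205 to 824 in CPE. Exactly 1 read was counted for 511 to 791 genes in T, 26 to 58 in LPE and 33 to 92 in CPE, although the LPE and CPE libraries held more gene reads. The part of this difference in the zeros of the hairpins was not tested. As a measure of how common the pattern is, 549 other genes had a T total between 28 and 44 reads, the range of the 3 hairpins. Of these, 21 had 0 reads in all 3 LPE libraries (3.83%), 17 in all 3 CPE libraries (3.1%) and 7 in all 6 (1.28%).

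Of the other hairpins of the cluster, which the choice did not name, Mir291b and Mir292 were read in every T library. Mir291b had 29, 13 and 24 reads in T, 0 in all LPE libraries, and 8 in CPE library 3 alone. Mir292 had 8, 6 and 15 reads in T, 0 in all LPE libraries, and 11 in CPE library 3 alone. Mir293 was read in T library 3 alone, with 6 reads. CPE library 3 therefore held reads of 2 hairpins that lie between Mir291a and Mir294, which themselves had none there.

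Mir295-1 and Mir295-2 had 0 reads in all 9 libraries. Their RefSeq hairpins are identical over 81 bases, and reads that map to several places enter no row. The part of this in their zeros was not tested. Over the 8 rows named Mir290 to Mir295, T libraries 1, 2 and 3 held 65, 51 and 91 reads, every LPE library 0, and CPE libraries 0, 0 and 19. The cluster total was 35.8 ± 6.39 CPM with T, 0 with LPE and 2.04 ± 3.53 with CPE (SD, n = 3). The groups of this total did not overlap between T and either other medium, a separation that 47.3% of all genes tested showed for LPE and 54.4% for CPE.

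In CPM, Mir291b was at 15.8, 7.53 and 11.2 in T libraries 1, 2 and 3 and Mir292 at 4.37, 3.47 and 6.97. In CPE library 3 they stood at 2.58 and 3.54. Their T libraries lay above LPE at both rows, while for Mir292 CPE library 3 lay within the range of T. Neither row is given a test, because neither would have passed the low-count filter without the T libraries.

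**Figure D1:**
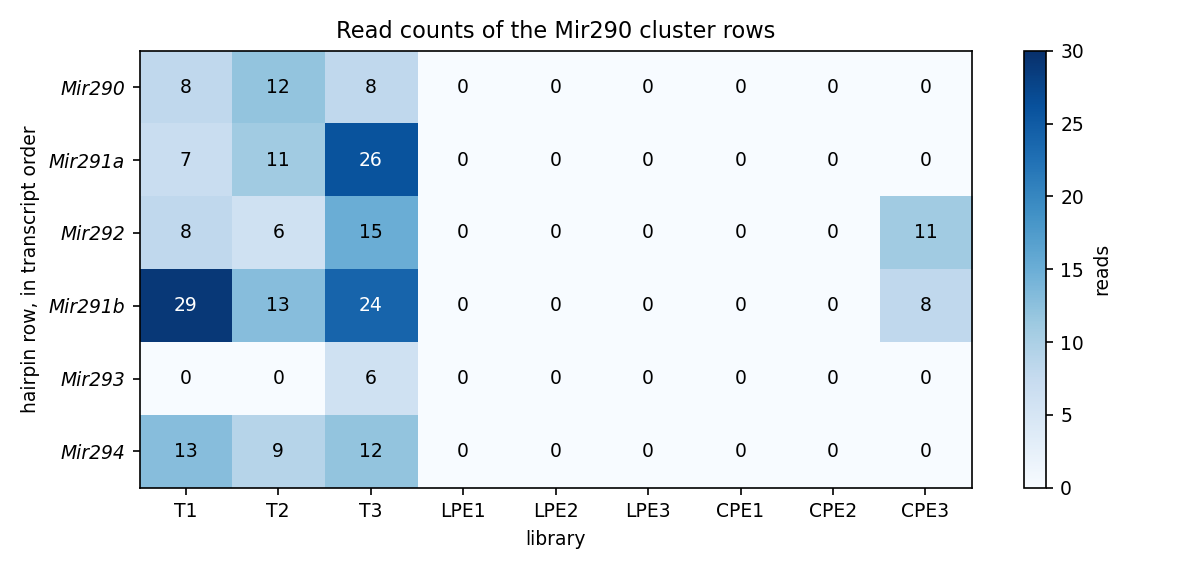
Reads counted on each hairpin row of the Mir290 cluster (vertical axis, in transcript order, rows with no reads left out) in each of the 9 libraries (horizontal axis); the number in each cell is the read count and the shade follows it. Every row but Mir293 has reads in all T columns, and Mir293 has reads in T library 3 alone. The LPE columns are 0 throughout, and CPE library 3 holds 11 reads of Mir292 and 8 of Mir291b.

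The genes around the cluster gave little signal. Nlrp12, in which RefSeq places the hairpins and which encodes a leucine-rich repeat immune sensor, had 0 reads in all 9 libraries. The next row in the tables after Mir290, LOC292543, had 1.72 ± 0.617 CPM with T, 8.44 ± 7.67 with LPE and 3.71 ± 2.19 with CPE, with no call in any comparison. Neither Nlrp12 nor LOC292543 thus stood at a higher level in T than in the other media. Reads between the hairpins were not examined.

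Counts of either strand equalled the gene-strand counts for Mir290, Mir291a, Mir294 and Rn5s in all 9 libraries, and their opposite strand held 0 reads. For Rmrp the opposite strand held 0 to 31 reads against 16693 to 101216 on the gene strand. The choice of strand column left the values of the hairpins and of Rn5s as they are.

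Rn5s, the row for 5S ribosomal RNA, was low in T and far higher in both defined media. It had 25, 1 and 8 reads in T libraries 1, 2 and 3. It had 526, 549 and 742 reads in LPE and 566, 800 and 591 in CPE. In CPM these were 13.6, 0.579 and 3.72 in T, 168, 171 and 238 in LPE, and 167, 182 and 190.4 in CPE. T did not overlap either other group, and LPE and CPE overlapped. The share of all genes tested without overlap was 47.3% between LPE and T and 54.4% between CPE and T.

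The mean Rn5s level was 5.98 ± 6.82 CPM with T, 192 ± 39.5 with LPE and 180 ± 11.9 with CPE (SD, n = 3). The ratio of means was 32.1 between LPE and T and 30.04 between CPE and T. Both ratios turned on T library 1: without it they were 89.4 and 83.6, and without T library 2 they were 22.1 and 20.7. LPE stood 1.07 times as high as CPE, within the spread of the LPE libraries, and this order turned when LPE library 3 was left out.

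Per 1000000 reads of every kind, the Rn5s ratios were 46.6 between LPE and T and 47.3 between CPE and T. Most reads of these libraries mapped to several places and enter no row, 64.9% to 67.6% in T, 54.2% to 59.9% in LPE and 51.7% to 58.2% in CPE. The 5S gene exists in many near-identical copies in mammals, and ribosomal RNA was removed from the RNA before the libraries were made. The Rn5s row (RefSeq: 120 bases, on chromosome 12) therefore counts only reads that the aligner could place once, and the part of multi-mapping and of ribosomal RNA removal in the difference was not tested. The RNA was also purified on RNeasy columns, which retain very short RNAs poorly, by a protocol that the labels give alike for all 9 libraries.

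The rows on either side of Rn5s had changes of another size. Rfc3, a subunit of the clamp loader of DNA replication, fell by 1.07 on the log2 scale in LPE (SE 0.23, edgeR adjusted p = 0.00234) and by 1.02 in CPE (SE 0.23, edgeR adjusted p = 0.00283). Insr, the insulin receptor, was 1.81-fold higher in CPE than in T (edgeR adjusted p = 0.0295, a call lost in 4 of 15 alternative fits) and was not called between LPE and T (edgeR adjusted p = 0.431).

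**Figure D2:**
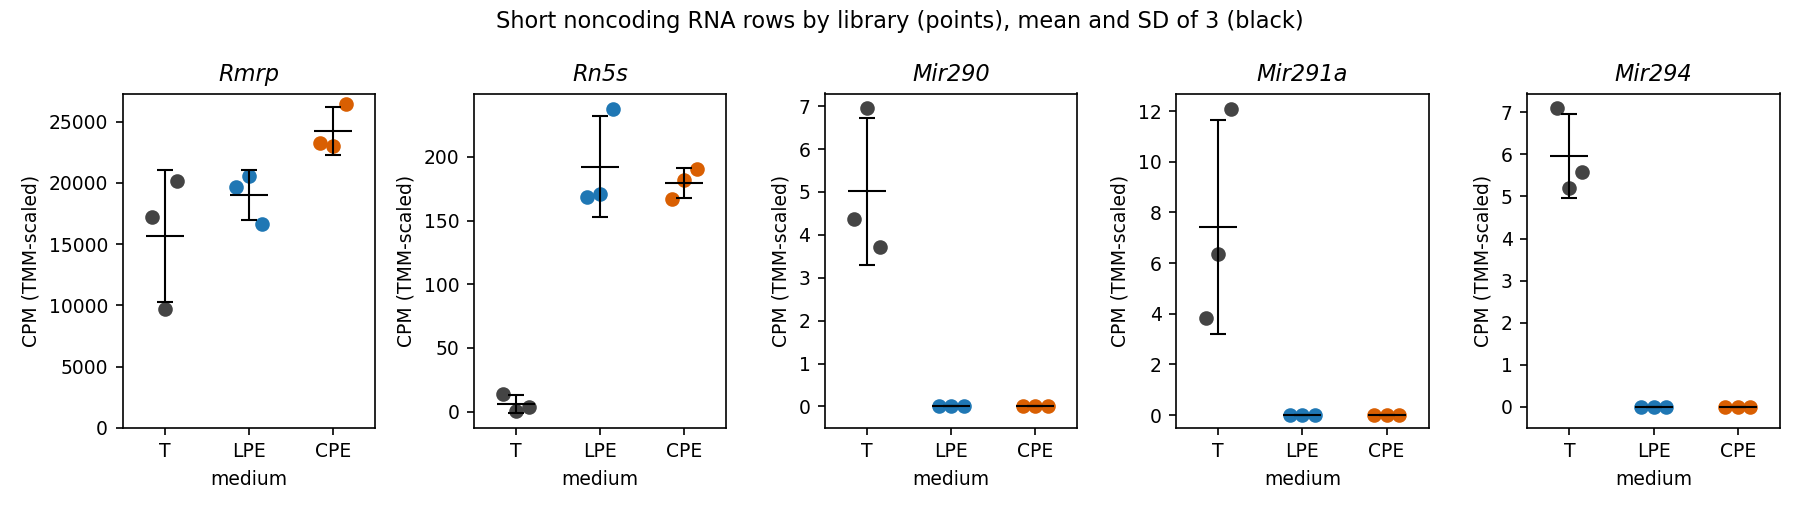
Level of each of the 5 genes in CPM with TMM scaling (vertical axes, linear, each panel with its own range) in the 3 libraries of each medium (horizontal axis); points are libraries, and black bars are the mean and SD of 3. Rn5s sits at 0.579 to 13.6 in T and at 167 to 238 elsewhere, the 3 hairpins are at 0 outside T, and the Rmrp groups overlap between T and LPE.

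The Rmrp row held more reads than any other row in 8 of the 9 libraries and the next most in T library 2. This compares reads per row, not levels per base. It had 31560, 16693 and 43332 reads in T libraries 1, 2 and 3, 61629, 66147 and 52049 in LPE, and 78850, 101216 and 82138 in CPE. Its share of gene reads was 0.983% to 2.00% in T, 1.67% to 2.05% in LPE and 2.29% to 2.63% in CPE. The lowest value of all came from T library 2 (95% Wilson interval 0.968% to 0.998%, counting error only), and the 3 CPE libraries were the highest.

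In CPM, Rmrp was at 17221, 9667 and 20148 in T, at 19699, 20560 and 16682 in LPE, and at 23252, 22988 and 26458 in CPE. The means were 15679 ± 5408, 18980 ± 2036 and 24233 ± 1932 CPM (SD, n = 3). The order of the means was T, LPE, CPE, and the neighbours T and LPE overlapped. The ratio of means between LPE and T was 1.21, and 1.02 without T library 2. The ratio was 1.55 between CPE and T and 1.28 between CPE and LPE, and neither pair of groups overlapped.

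Among all genes tested, 31.3% had groups that did not overlap between CPE and LPE, and the share was larger between CPE and T, at the 54.4% given above. Leaving out each library in turn, the Rmrp ratio ran from 1.30 to 1.802 between CPE and T and from 1.20 to 1.33 between CPE and LPE. Per 1000000 reads of every kind, Rmrp stood at 1314 ± 482 in T, 2259 ± 35.3 in LPE and 3184 ± 203 in CPE (SD, n = 3). On that scale the ratios were 1.72 for LPE against T, 2.42 for CPE against T and 1.41 for CPE against LPE, and no groups overlapped. Of all genes tested, 49.2%, 58.6% and 28.5% had no overlap on that scale in these comparisons. Of all reads, those in genes made up 7.96% to 8.60% in T, 11.1% to 13.3% in LPE and 12.1% to 14.8% in CPE, and this is the arithmetic step between the scales.

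Which RNA the Rmrp row holds is uncertain. In RefSeq the symbol is only a synonym of a gene now named Rpph1, the RNA of RNase P, yet typed there as RNase MRP RNA, with 257 bases on chromosome 15. RefSeq places that gene between Ccnb1ip1 and Tep1, overlapping Parp2, and the row stands between Ccnb1ip1 and Parp2 in the tables too. The values of the row can therefore be read as either RNA, and the files do not settle which. No row named Rpph1 is used here.

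The neighbouring genes were read far less than Rmrp. Parp2, a DNA-repair polymerase, was at 52.2 ± 4.57 CPM with T, 45.5 ± 29.1 with LPE and 63.2 ± 13.2 with CPE and was not called (edgeR adjusted p = 0.739, 0.619 and 0.414 for LPE against T, CPE against T and CPE against LPE). Ccnb1ip1, a ubiquitin ligase of meiotic recombination, was not called either (edgeR adjusted p = 0.196, 0.774 and 0.381). Tep1, a protein that binds telomerase RNA and vault RNA, rose 6.03-fold in LPE and 4.43-fold in CPE over T (edgeR adjusted p = 0.000303 and 0.00119).

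T library 2 was the lowest library for Rmrp and for Rn5s, and also for Terc, the RNA template of telomerase. Terc had 318, 234 and 512 reads in T, 908, 1175 and 846 in LPE, and 893, 1088 and 997 in CPE. It rose from 182 ± 51.8 CPM in T to 309 ± 49.7 in LPE (log2 fold change 0.76, SE 0.19, edgeR adjusted p = 0.00597). Between CPE and T it was called at an edgeR adjusted p of 0.0217, a call lost in 3 of 15 alternative fits.

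Terc was 1 of 11 short noncoding or ribosomal RNA rows outside the cluster and the 5 genes with enough reads to test. Of these 11, 2 were called higher and 1 lower in LPE than in T, 2 higher and 1 lower in CPE than in T, and 0 higher and 1 lower in CPE than in LPE. The row called lower was each time Rn45s, a long ribosomal RNA precursor, so no short row was called lower. Of all 9130 genes tested with edgeR's quasi-likelihood test, 29.7%, 32.1% and 17.8% were called at an adjusted p under 0.05 in these comparisons, in either direction. The median log2 fold changes of the 11 rows were 0.16, 0.07 and -0.16, beside -0.03, -0.01 and 0.01 over all genes. Most short rows were hardly read: 343 of the 465 had 0 reads in all libraries, and 53 had at least 10 reads in all. Of these 53, 35 did not pass the filter and held at most 61 reads over the 9 libraries.

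Neither of the other ribosomal RNA rows was called higher outside T. Rn5-8s, the 5.8S RNA, was at 3552 ± 1023 CPM with T, 3428 ± 1533 with LPE and 3736 ± 410.3 with CPE and was not called (edgeR adjusted p = 0.902, 0.85 and 0.771). Rn45s, the precursor that holds the 18S, 5.8S and 28S RNAs, fell from 737 ± 67.8 CPM in T to 501 ± 51.2 in LPE (log2 fold change -0.56, SE 0.14, edgeR adjusted p = 0.00796). It fell further to 363 ± 77.1 in CPE (log2 fold change against T -1.02, SE 0.14, edgeR adjusted p = 6.22e-05). The step from LPE to CPE was called at an edgeR adjusted p of 0.0337 and was lost in 4 of 15 alternative fits.

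Mir1949 was the other short row that rose in both media. It had 19, 19 and 20 reads in T, 113, 45 and 173 in LPE, and 146, 170 and 150 in CPE. Its log2 fold change over T was 1.78 in LPE (SE 0.44, edgeR adjusted p = 0.00578) and 2.08 in CPE (SE 0.44, edgeR adjusted p = 0.00175). The Mirlet7d, Mir186, Mir6315, Mir3068, Mir7a-1, Mirlet7f-1 and Mir324 rows were tested and not called in any comparison.

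**Figure D3:**
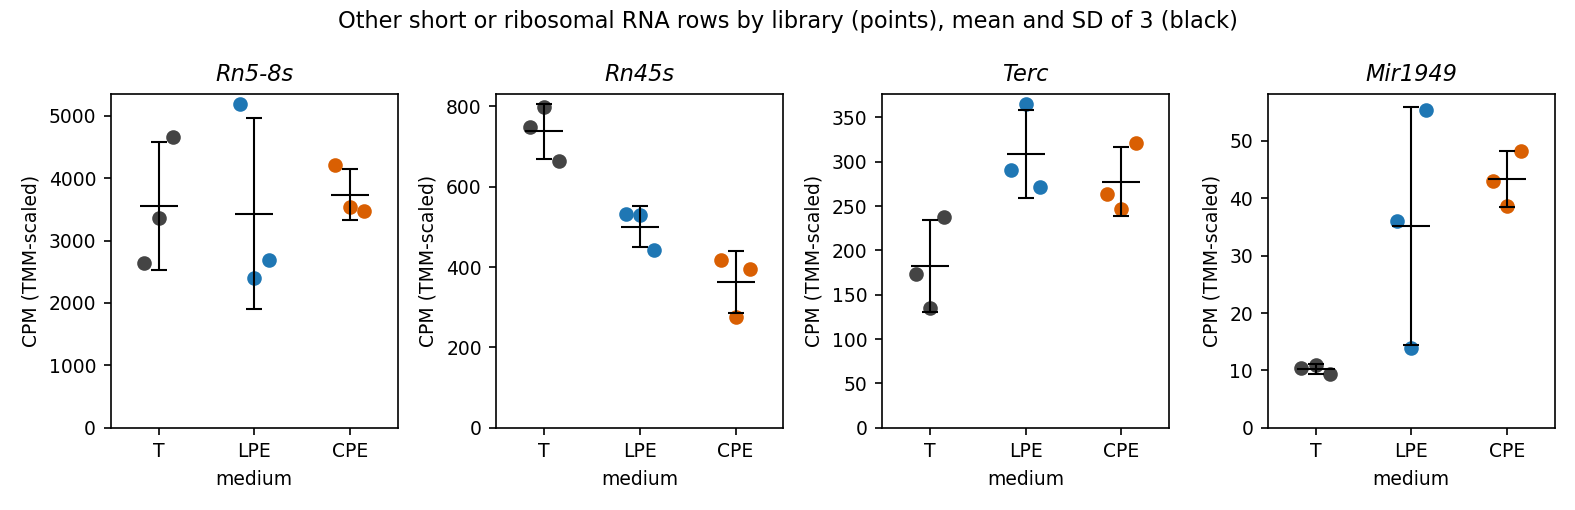
Level in CPM with TMM scaling (vertical axes, linear from 0) of 4 other short or ribosomal RNA rows in each medium (horizontal axis); points are the 3 libraries of a medium, and black bars are their mean and SD. Rn45s steps down from 737 in T to 363 in CPE, Terc and Mir1949 are higher outside T, and Rn5-8s overlaps in all media.

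The genes for the proteins of RNase MRP and RNase P had calls lower than T and none higher in these fits. Of 11 such genes, all tested, 0 were called higher and 5 lower in LPE than in T, with a median log2 fold change of -0.63. That is 45.5% called, beside 29.7% of all genes. In CPE against T 0 were higher and 3 lower, with a median of -0.44, and 27.3% called is below the 32.1% of all genes. The 3 lower became 0 without T library 1 or without T library 3, and 1 without T library 2 or without CPE library 2. In CPE against LPE 2 were higher and 0 lower, with a median of 0.50, and 18.2% called is near the 17.8% of all genes.

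Rpp25, an RNA-binding subunit shared by both enzymes, was at 154, 159 and 163 CPM in T, 40.9, 52.2 and 45.5 in LPE, and 102, 68.6 and 127 in CPE. All 3 groups were apart from each other. Of all genes tested, 47.3% were apart between LPE and T, 54.4% between CPE and T, and 31.3% between CPE and LPE. It fell 3.43-fold in LPE (edgeR adjusted p = 2.25e-05) and stood 2.14-fold higher in CPE than in LPE (edgeR adjusted p = 0.00215). Pop7, its partner in the enzyme, fell 2.72-fold in LPE (edgeR adjusted p = 0.00101) and was 2.19-fold higher in CPE than in LPE (edgeR adjusted p = 0.00881).

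Pop4 and Pop5, further shared subunits, fell 2.31-fold and 2.52-fold in LPE (edgeR adjusted p = 0.000277 and 0.00449). Rpp25l, a relative of Rpp25, fell 6.50-fold in LPE (edgeR adjusted p = 0.016), a call lost without T library 2. In CPE against T, Pop4 fell 1.64-fold (edgeR adjusted p = 0.0106), a call lost without T library 1 or without T library 3. Rpp40 fell 1.62-fold there (edgeR adjusted p = 0.0421), a call lost in 7 of 15 alternative fits.

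RNA polymerase III, which makes 5S RNA, RNase MRP RNA and RNase P RNA, moved in both directions. Of 27 tested genes of the polymerase and its factors (30 listed), 3 were called higher and 7 lower in LPE than in T, 2 higher and 3 lower in CPE than in T, and 1 higher and 0 lower in CPE than in LPE. The medians were -0.12, 0.03 and 0.11 on the log2 scale. The shares called were 37.0%, 18.5% and 3.7%, beside 29.7%, 32.1% and 17.8% of all genes. The 7 lower in LPE became 3 without T library 1 or without T library 2, and 4 without T library 3. The 3 lower in CPE against T became 1 without any 1 of the T libraries or without CPE library 3. In CPE against LPE the 1 higher became 3 without LPE library 1 and 2 without CPE library 1. Polr3c, a subunit of the enzyme, rose 2.10-fold in LPE and 2.03-fold in CPE (edgeR adjusted p = 0.000748 and 0.000938).

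Gtf3c2, part of the factor TFIIIC that binds within 5S and tRNA genes, rose 1.59-fold in LPE and 1.57-fold in CPE (edgeR adjusted p = 0.00448 and 0.00469). Gtf3c4 of the same factor rose 1.75-fold in LPE (edgeR adjusted p = 0.0212), a call lost in 2 of 15 alternative fits. Tbp, the TATA-binding protein used by all 3 nuclear polymerases, fell 2.23-fold in LPE (edgeR adjusted p = 0.000994). Tbp also fell 1.63-fold in CPE (edgeR adjusted p = 0.0214), a call lost without any 1 of the T libraries or without CPE library 2 or 3. Rpo1-3, the row for the Polr1d subunit shared with polymerase I, fell by 1.05 on the log2 scale in CPE (SE 0.22, edgeR adjusted p = 0.00147). Rpo1-3 also fell 1.76-fold in LPE (edgeR adjusted p = 0.00886), a call lost without T library 1. Polr3d was 1.65-fold higher in CPE than in LPE (edgeR adjusted p = 0.00051).

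Of 7 tested genes for the partners of 5S RNA (8 listed), 0 were called higher and 3 lower in LPE than in T, 0 higher and 3 lower in CPE than in T, and 1 higher and 1 lower in CPE than in LPE. The medians were -0.29, -0.10 and -0.03 on the log2 scale, and 42.9%, 42.9% and 28.6% were called, beside 29.7%, 32.1% and 17.8% of all genes. In LPE against T 1 was called higher with counts of either strand and without T library 2, LPE library 3 or CPE library 1. In CPE against T 1 was called higher without LPE library 1. Rpl11, which binds 5S RNA before it enters the ribosome, fell from 1696 ± 218 CPM in T to 886 ± 20.9 in LPE and 880 ± 46.2 in CPE (edgeR adjusted p = 5e-06 and 3.55e-06). Rrs1, which helps to place the 5S particle on the large subunit, fell 1.89-fold and 1.94-fold (edgeR adjusted p = 0.000844 and 0.000556).

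Rpl5, the other protein of the 5S particle, was at 2075 ± 159 CPM with T, 1849 ± 114 with LPE and 1771 ± 44.4 with CPE. It was called lower in CPE than in T by 1.17-fold (edgeR adjusted p = 0.0459), a call lost in 10 of 15 alternative fits. Mdm2, the ubiquitin ligase that the free 5S particle inhibits, was 1.46-fold lower in LPE than in T (edgeR adjusted p = 0.0256), a call lost without T library 2, LPE library 2 or LPE library 3. It was 1.88-fold higher in CPE than in LPE (edgeR adjusted p = 0.00159). Rpf2, which works with Rrs1, was not called in any comparison (edgeR adjusted p = 0.583, 0.947 and 0.561). Ssb, the La protein that binds the 3′ ends of new polymerase III transcripts, stood at 276 ± 10.6 CPM with T, 351 ± 39.8 with LPE and 258 ± 47.4 with CPE. CPE was called below LPE by 1.36-fold (edgeR adjusted p = 0.0386), a call lost in 8 of 15 alternative fits. Trove2, the Ro protein that binds misfolded 5S RNA, was not called in any comparison (edgeR adjusted p = 0.097, 0.472 and 0.414).

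**Figure D4:**
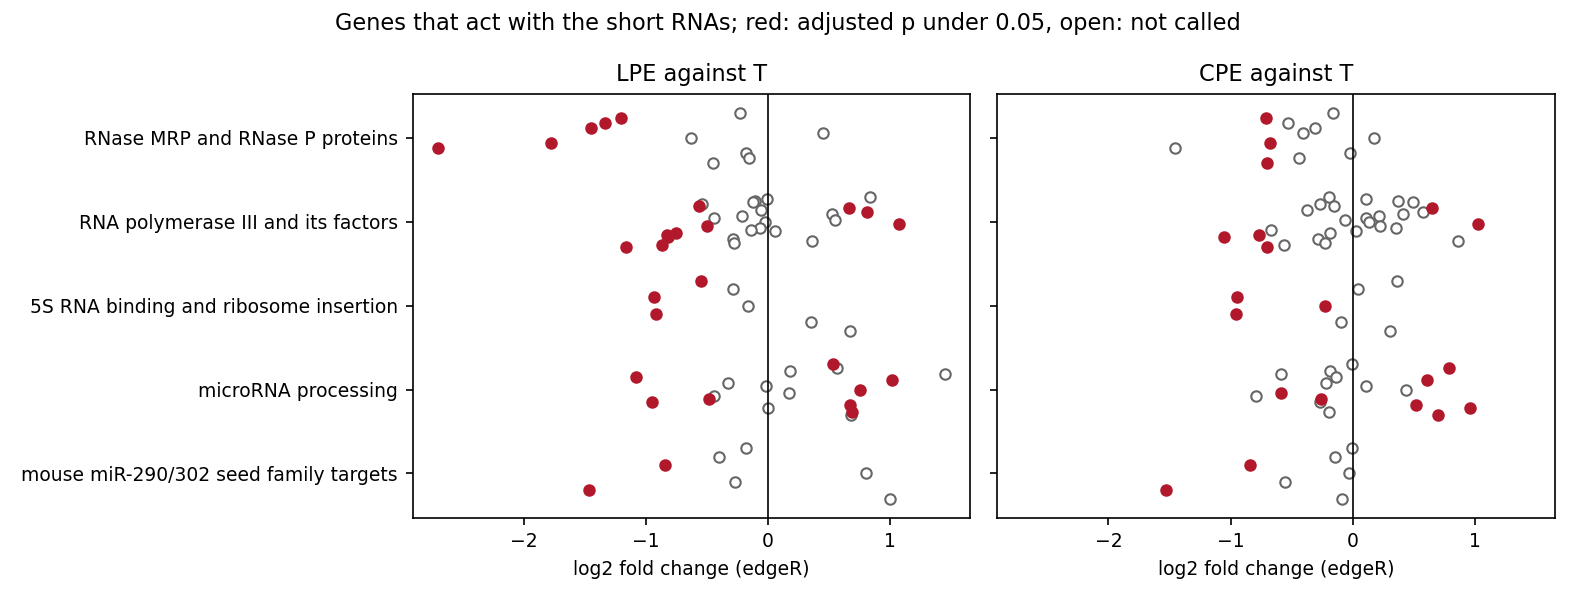
Log2 fold change from edgeR (horizontal axis) of each tested gene in 5 lists (vertical axis) for LPE against T (left) and CPE against T (right); red points had an adjusted p under 0.05 and open points did not. All 5 called RNase MRP and P protein genes lie left of 0 in LPE, while the RNA polymerase III and microRNA processing lists have called genes on both sides.

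MicroRNA processing genes also moved both ways. Of 17 tested (21 listed), 5 were called higher and 3 lower in LPE than in T, 5 higher and 2 lower in CPE than in T, and 3 higher and 4 lower in CPE than in LPE. The medians were 0.18, -0.14 and -0.15 on the log2 scale, and 47.1%, 41.2% and 41.2% were called, beside 29.7%, 32.1% and 17.8% of all genes. The 5 higher in CPE against T became 1 without T library 2, 3 without T library 1, and 2 without T library 3 or any 1 of the CPE libraries. The 2 lower there became 1 with no low-count filter, without any 1 of the T libraries and without CPE library 1 or 2. The 5 higher in LPE against T became 3 without T library 2. Ddx5, a helicase of the complex that cuts hairpins out of primary transcripts, rose 2.02-fold in LPE (edgeR adjusted p = 1.14e-06). Its relative Ddx17 fell 2.11-fold in LPE (edgeR adjusted p = 0.000697) and stood 1.92-fold higher in CPE than in LPE (edgeR adjusted p = 0.00319).

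Drosha, the nuclease of that complex, rose 1.69-fold in LPE (edgeR adjusted p = 0.0274), a call lost in 4 of 15 alternative fits. Tarbp2, a partner of Dicer, fell by 0.95 on the log2 scale in LPE (SE 0.15, edgeR adjusted p = 0.000202). Xpo5, which carries hairpins out of the nucleus, stood lower in CPE than in LPE by 1.84-fold (edgeR adjusted p = 0.00094). Lin28a, which blocks the maturation of let-7 precursors, stood lower in CPE than in T by 1.51-fold (edgeR adjusted p = 0.0053).

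Of 7 tested genes reported in mouse as targets of the miR-290 seed family (8 listed), 0 were called higher and 2 lower in LPE than in T, and the counts were the same in CPE against T. That is 28.6% called in each, near the 29.7% and 32.1% of all genes, and nothing is read from the count. The medians were -0.27 and -0.15 on the log2 scale. The 2 lower became 1 without any 1 of the T libraries, in LPE also without LPE library 2 or 3 and in CPE without any 1 of the CPE libraries, and 1 was called higher in LPE without LPE library 1. Rhoc, a small GTPase, was at 122, 126 and 112 CPM in T, 73.2, 19.6 and 37.2 in LPE, and 61.9, 36.6 and 25.8 in CPE. It fell 2.77-fold in LPE and 2.89-fold in CPE (edgeR adjusted p = 0.0088 and 0.00613).

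Ei24, a protein of the endoplasmic reticulum, fell 1.79-fold in both media (edgeR adjusted p = 0.0383 and 0.0357), calls lost in 5 and 6 of 15 alternative fits. Cdkn1a and Rbl2, which hold cells before S phase, were not called in LPE against T (edgeR adjusted p = 0.199 and 0.919) or in CPE against T (edgeR adjusted p = 0.663 and 0.815). Lats2, Casp2 and Tgfbr2 were not called in any comparison, and Dkk1 had too few reads to test.

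Of the factors that bind the Mir290 promoter in mouse, Sox2 and Nanog had 0 reads in all 9 libraries. Pou5f1 (Oct4), which rat pXEN cells share with pluripotent cells, was at 253 ± 28.6 CPM with T, 264 ± 54.9 with LPE and 132 ± 32.1 with CPE. It fell 1.92-fold in CPE against T (edgeR adjusted p = 0.00119) and was not called in LPE against T (edgeR adjusted p = 0.852). Tcf7l1, a repressor in the Wnt pathway, was not called between LPE and T (edgeR adjusted p = 0.189) or CPE and T (edgeR adjusted p = 0.991).

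The genes whose levels across the 9 libraries were most like each of the 5 genes were found by Pearson's r of log2(CPM + 2) among 7502 genes of at least 10 CPM. These values describe 9 points that share their media and library depth. Rmrp was most like Bnip1 (r = 0.971), Pds5b (r = 0.952) and Rbsn (r = 0.943), and 9 genes reached an r of 0.9. Rn5s was most like Nolc1 (r = 0.990), Pbxip1 (r = 0.989) and Nomo1 (r = 0.989), among 348 such genes. Nolc1, a nucleolar phosphoprotein, stood at 131 ± 41.9 CPM with T, 466 ± 26.7 with LPE and 511 ± 50.5 with CPE.

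Mir290 was most like Sec61a1 (r = 0.991), Rrm1 (r = 0.990) and Eif5a (r = 0.989), with 217 genes at 0.9 or more. Mir291a was most like Ppp2r2d (r = 0.976), Copb1 (r = 0.972) and Snrpa (r = 0.971), with 116 such genes. Mir294 was most like Rpl10a (r = 0.994), Fabp3 (r = 0.987) and Ppp4c (r = 0.987), with 249 such genes. How many genes in the long lists for Rn5s and the hairpins have T libraries apart from the other 6 was not counted. The list for Rmrp held 9 genes, and how many genes share its order of media was not counted.

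Gene reads per library ran from 1698764 to 2161228 in T, 3119049 to 3233526 in LPE and 3127352 to 4418465 in CPE, and 10143 to 10621, 8607 to 9314 and 9162 to 9878 genes had a read. The summed level of 6 primitive endoderm markers (Gata4, Gata6, Sox17, Pdgfra, Foxa2 and Dab2) was 3219 to 3699 CPM in T, 3175 to 3431 in LPE and 2422 to 2677 in CPE, with all 6 read in every group. Within this sum the 6 markers moved in both directions. In LPE against T 2 were called higher and 1 lower, and in CPE against T 2 higher and 3 lower. That is 50.0% and 83.3% called, beside 29.7% and 32.1% of all genes. The 2 higher in CPE against T became 1 without T library 3 or without CPE library 1. Of the epiblast markers, Nanog, Sox2 and Fgf4 were at 0 in all libraries. Of 5 fibroblast markers, Col1a2, Dcn and Lum were at 0 throughout, and Col1a1 and Col3a1 summed to 1.39 to 31.3 CPM in T and 0 elsewhere. The trophoblast markers Cdx2 and Elf5 summed to 0.465 to 0.579 CPM in T, 0 in LPE and 12.04 to 28.3 in CPE, and their part in the values above was not tested.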

How the data were processed

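Total RNA of 9 libraries was depleted of ribosomal RNA and turned into directional, randomly primed, PCR-enriched cDNA, per the labels' protocols. CASAVA 1.8.2, Trimmomatic 0.33, STAR 2.5.1, DESeq2 and build rn6 are named in the submitters' processing notes, while no annotation is named in these sources. The deposited tables hold the authors' raw read counts per gene symbol, for either strand and for each strand, and the gene-strand column was used. Unmapped, multi-mapped, ambiguous and outside-gene reads were kept out of library sizes except where a value is given per reads of every kind.

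Groups came from the sample labels. Tests used edgeR 4.0.16 with R 4.3.3 on these counts (quasi-likelihood F test, all 9 libraries, TMM, filterByExpr with at least 10 counts and 15 in total), with Benjamini-Hochberg adjustment over 9130 genes and a threshold of 0.05. Each p-value rests on how far these libraries vary, and that may be technical spread. The script was tested on simulated counts. Replicates differed by more than sampling noise, so none was counted as a duplicate.

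The 5 genes and the gene lists were chosen with earlier results of these data known. Genes that could be named were set by rule, and not all are printed: in each list and comparison up to 2 called rises and falls, any gene of lists of 8 or fewer, the 3 most similar genes, short rows with at least 10 counts and the flanking genes. Pop4, Pop5, Pop7, Gtf3c2 and Rpo1-3 in LPE, Tbp in CPE, Mir293, both Mir295 rows, Rfc3 and Insr fall outside it and were named with their values known. The alternatives were DESeq2 1.42.0, its size factors, no filter, either-strand counts, totals without the 5 genes, a replicate block and leaving out each library. Sequences were read from RefSeq tables (GRCr8).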

Additional observations from a re-analysis of the deposited data

How the results depend on the processing

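The number of genes called was 2716 for LPE against T, 2928 for CPE against T and 1624 for CPE against LPE, and stayed within 1.5 times of that in every alternative run. DESeq2 called 2820, 3078 and 1952. Replicate numbers are shared between media but did not pair the libraries, with correlations of same-number deviations from -0.0283 to 0.00998 over 9 pairs, and the replicate block gave 2558, 2751 and 1500 calls. Leaving out each library gave 1896 to 2853, 2083 to 3490 and 1298 to 1758. Of the 53 calls of single genes given here, 40 were kept in all 15 alternatives, 13 were lost in at least 1, and 0 reversed.

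For the 5 genes, the log2 ratio of Rmrp between CPE and T was 0.63 and became 1.28 per reads of every kind. With a pseudocount of 2 CPM in place of 0.5, the log2 ratio of both media to T moved from -3.46 to -1.81 for Mir290, from -3.99 to -2.24 for Mir291a and from -3.69 to -1.99 for Mir294, and per reads of every kind that of Mir294 was -3.29. The log2 ratio of Rn5s between CPE and LPE was -0.10 and ran from -0.10 to 0.02 over the settings and from -0.18 to 0.08 leaving out each library. Depth limits the hairpins: 1 read is worth 0.227 to 0.579 CPM, and no ratio between CPE and LPE can be given where both are at 0.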

Other observations

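Genes of ribosomal RNA synthesis and processing moved in both directions beside the fall of Rn45s. Of 19 tested (20 listed), 4 were called higher and 5 lower in LPE than in T, 3 higher and 5 lower in CPE than in T, and 1 higher and 6 lower in CPE than in LPE, with median log2 fold changes of 0.12, -0.16 and -0.28. The shares called were 47.4%, 42.1% and 36.8%, beside 29.7%, 32.1% and 17.8% of all genes. Ncl, the abundant nucleolar protein nucleolin, fell from 284 ± 64.5 CPM in T to 91.6 ± 9.81 in CPE (edgeR adjusted p = 3.74e-05), and Nop56, a core protein of box C/D particles, fell from 506 ± 26.8 to 182 ± 35.1 (edgeR adjusted p = 2.04e-06). Fbl, the methyltransferase of the same particles, fell from 490 ± 32.9 CPM in T to 229 ± 19.3 in LPE (edgeR adjusted p = 1.01e-05), while Nop58, another of their core proteins, rose from 163 ± 8.20 to 306 ± 42.3 (edgeR adjusted p = 0.000133). Gas5, a host transcript of box C/D RNAs, rose 1.75-fold in LPE (edgeR adjusted p = 0.000319).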
